A study of Homo sapiens with 12 samples.

Results

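NKG2D ligands are surface proteins that the activating receptor NKG2D of natural killer (NK) cells and cytotoxic T cells binds. The 8 human genes that encode them, MICA, MICB, ULBP1, ULBP2, ULBP3, RAET1E, RAET1G and RAET1L, were taken by symbol from the 19771 protein-coding genes of the deposited table, and all 8 were found. The family was chosen by the level of MICB, one of the larger differences between OE_IFI6 and OE_control, and the other 7 genes came with it as ligands of the same receptor. RNA was sequenced in TE-1 cells, an oesophageal cancer line, 48 h after transfection with a vector. The 12 libraries formed 4 groups of 3: OE_IFI6 (overexpression of IFI6), OE_control (control of the overexpression vector), sh_IFI6 (interference vector against IFI6) and sh_control (control of the interference vector). All groups share the line, the medium and the transfection, and the labels give no untransfected cells, no agent and no clone. Nothing in the labels tells whether replicate libraries are separate cultures, and the p-values may therefore reflect technical spread alone. The design asks which genes follow the level of IFI6, a mitochondrial protein gene induced by interferon.

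NKG2D ligands are scarce on most healthy cells and are induced by heat shock, DNA damage, infection and transformation, so that stressed cells can be recognised and killed. MICA and MICB are transmembrane proteins with the fold of an MHC class I heavy chain, encoded beside the classical HLA genes. ULBP1, ULBP2, ULBP3 and RAET1L are held on the membrane by a glycosylphosphatidylinositol (GPI) anchor, RAET1E by a transmembrane segment, and RAET1G has been described in both forms. RNA levels say nothing of the amount of ligand on the cell surface, which also depends on trafficking and on proteases that shed it.

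All 8 genes lie on chromosome 6, in 2 clusters. By the deposited coordinates, MICA lies at chr6:31399784-31415315 and MICB at chr6:31494881-31511124. The ULBP and RAET1 genes follow along the long arm as RAET1E (chr6:149883375-149898102), RAET1G (chr6:149916878-149923121), ULBP2 (chr6:149942014-149949235), ULBP1 (chr6:149963943-149973715), RAET1L (chr6:150018334-150025532) and ULBP3 (chr6:150003479-150069121). The bounds of 5 of the 8 were those of GENCODE release 29 (GRCh38). The locus of ULBP3 was widened by an assembled transcript that runs across RAET1L, so the 2 loci overlap in the deposited table.

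The promoter windows of the 4 genes that reached a mean of 1 FPKM are shown because their RNA levels are the subject of the comparisons that follow. FPKM is a level scaled for transcript length and for the mapped fragments of a library, so that levels of different genes can be compared. The sequences are RefSeq's (GRCh38.p14), each from 250 bases before to 50 after the gene start and read 5′ to 3′ on the gene's strand. Capitals mark the inward heat shock element core (GAANNTTC), the GC box (GGGCGG, reverse CCGCCC) and the CCAAT box (CCAAT, reverse ATTGG).
MICA, chr6:31403345-31403644, plus strand: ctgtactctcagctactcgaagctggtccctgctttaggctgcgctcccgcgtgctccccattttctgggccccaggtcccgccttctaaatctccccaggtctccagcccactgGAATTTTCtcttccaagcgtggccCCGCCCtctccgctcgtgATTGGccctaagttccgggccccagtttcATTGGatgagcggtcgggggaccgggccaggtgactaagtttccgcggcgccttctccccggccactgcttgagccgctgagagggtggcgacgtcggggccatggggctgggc
MICB, chr6:31497895-31498194, plus strand: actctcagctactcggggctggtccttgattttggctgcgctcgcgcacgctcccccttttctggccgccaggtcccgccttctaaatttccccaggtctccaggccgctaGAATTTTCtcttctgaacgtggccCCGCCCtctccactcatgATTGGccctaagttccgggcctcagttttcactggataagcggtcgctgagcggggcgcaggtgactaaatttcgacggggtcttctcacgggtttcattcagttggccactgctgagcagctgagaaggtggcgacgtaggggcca
ULBP2, chr6:149941764-149942063, plus strand: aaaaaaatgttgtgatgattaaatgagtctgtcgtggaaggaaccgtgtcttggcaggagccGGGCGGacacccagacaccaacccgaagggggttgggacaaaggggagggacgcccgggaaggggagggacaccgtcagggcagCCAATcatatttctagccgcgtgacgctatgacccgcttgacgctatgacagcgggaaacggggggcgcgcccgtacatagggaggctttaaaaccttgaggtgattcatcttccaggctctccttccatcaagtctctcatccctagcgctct
ULBP3, chr6:150069072-150069371, minus strand: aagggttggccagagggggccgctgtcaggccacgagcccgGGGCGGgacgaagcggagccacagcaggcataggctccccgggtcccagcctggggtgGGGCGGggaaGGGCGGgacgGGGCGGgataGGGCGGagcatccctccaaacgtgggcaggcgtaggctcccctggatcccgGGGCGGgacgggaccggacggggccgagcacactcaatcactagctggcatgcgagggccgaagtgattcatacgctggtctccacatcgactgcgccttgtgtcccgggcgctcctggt

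The MICA and MICB windows were 86.6% identical over 284 aligned bases. Both held 1 heat shock element core with the letters GAATTTTC, whose first base lay 135 bases before the gene start in MICA and 139 in MICB. A match to GAANNTTC on either strand was present in 6.77% of 35116 RefSeq promoter windows. The core was followed in both by a GC box, 111 bases before the start in MICA and 115 in MICB, and by a CCAAT box 93 bases before it in MICA and 97 in MICB. MICA held a second CCAAT box 64 bases before the start. GC boxes were present in 45.0% and CCAAT boxes in 34.6% of all windows. The inward core was not in the letters of the ULBP and RAET1 windows, which matched to 10 windows with those of MICA and MICB because RAET1E has 3. ULBP3 had 6 GC boxes, and ULBP2 had 1 GC box, 1 CCAAT box and 1 CARE core (TGATGNAA on either strand; 3.62% of all windows). The TATA box (TATAAA; 11.5% of windows) was found in ULBP1, the outward heat shock core (TTCNNGAA; 7.74%) in 1 window of RAET1E, and the NF-kB core (6.52%) in none of the 10. The CARE match of ULBP2 and the TATA matches of ULBP1 began after the gene start. CARE, TATA and outward heat shock matches are not in capitals. A match is a run of letters and not a measured binding site.

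The targeted gene was high where the labels say it should be. IFI6 had 309, 268 and 358 FPKM in OE_IFI6, against 27.3, 17.9 and 28.8 FPKM in OE_control. It had 15.1, 13.9 and 14.7 FPKM in sh_IFI6, against 24.9, 24.1 and 21.2 FPKM in sh_control. The ratio of means was 12.6 for the overexpression pair and 0.624 for the hairpin pair, where the log2 fold change of -0.64 did not pass the test (limma adjusted p = 0.818). Summed FPKM ranged over 325877 to 357145, and a level of 1 FPKM was reached by 10650 to 10987 genes. The first principal component (23.1% of the variance) placed the 3 OE_control libraries at 22.2 to 30.6 and the other 9 at -11.3 to -5.9. Total read counts were not used here, and steps in the low values place the depths of the libraries within a factor of 1.29.

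The epithelial keratins KRT8 and KRT18 averaged 930 and 439 FPKM over the 12 libraries. The other 6 of 8 epithelial markers, among them the squamous keratins KRT5 and KRT14, were under 1 FPKM on average, with EPCAM, KRT5 and SOX2 listed at 0 in all libraries. None of 5 immune markers averaged 1 FPKM, and CD3E, HLA-DRA and NKG7 were listed at 0 throughout. The summed immune markers were 0.932 to 2.04 FPKM in OE_IFI6, 0.465 to 0.694 in OE_control, 0.271 to 1.01 in sh_IFI6 and 0.286 to 1.24 in sh_control. Of 4 fibroblast markers, 3 averaged over 1 FPKM, with summed levels of 4.4 to 5.47, 3.91 to 4.78, 4.2 to 5.44 and 4.73 to 6.45 FPKM in OE_IFI6, OE_control, sh_IFI6 and sh_control. The 2 endothelial markers reached at most 0.0631 FPKM. In bulk RNA, fewer cells that make a transcript and less transcript per cell cannot be told apart.

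MICB and MICA were the main ligand transcripts of TE-1 cells. Over the 12 libraries MICB averaged 43.7 and MICA 41.3 FPKM, and together they held 85.7% to 92.8% of the summed FPKM of the 8 genes. ULBP3 averaged 4.21 and ULBP2 4.17 FPKM. The remaining 4 genes were under the mean of 1 FPKM required for testing, so 4 of the 8 entered the fit. RAET1E lay just under that limit at 0.887 FPKM, with ULBP2 the nearest gene above it. ULBP1 averaged 0.127, RAET1L 0.0975 and RAET1G 0.0225 FPKM.

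**Figure D1:**
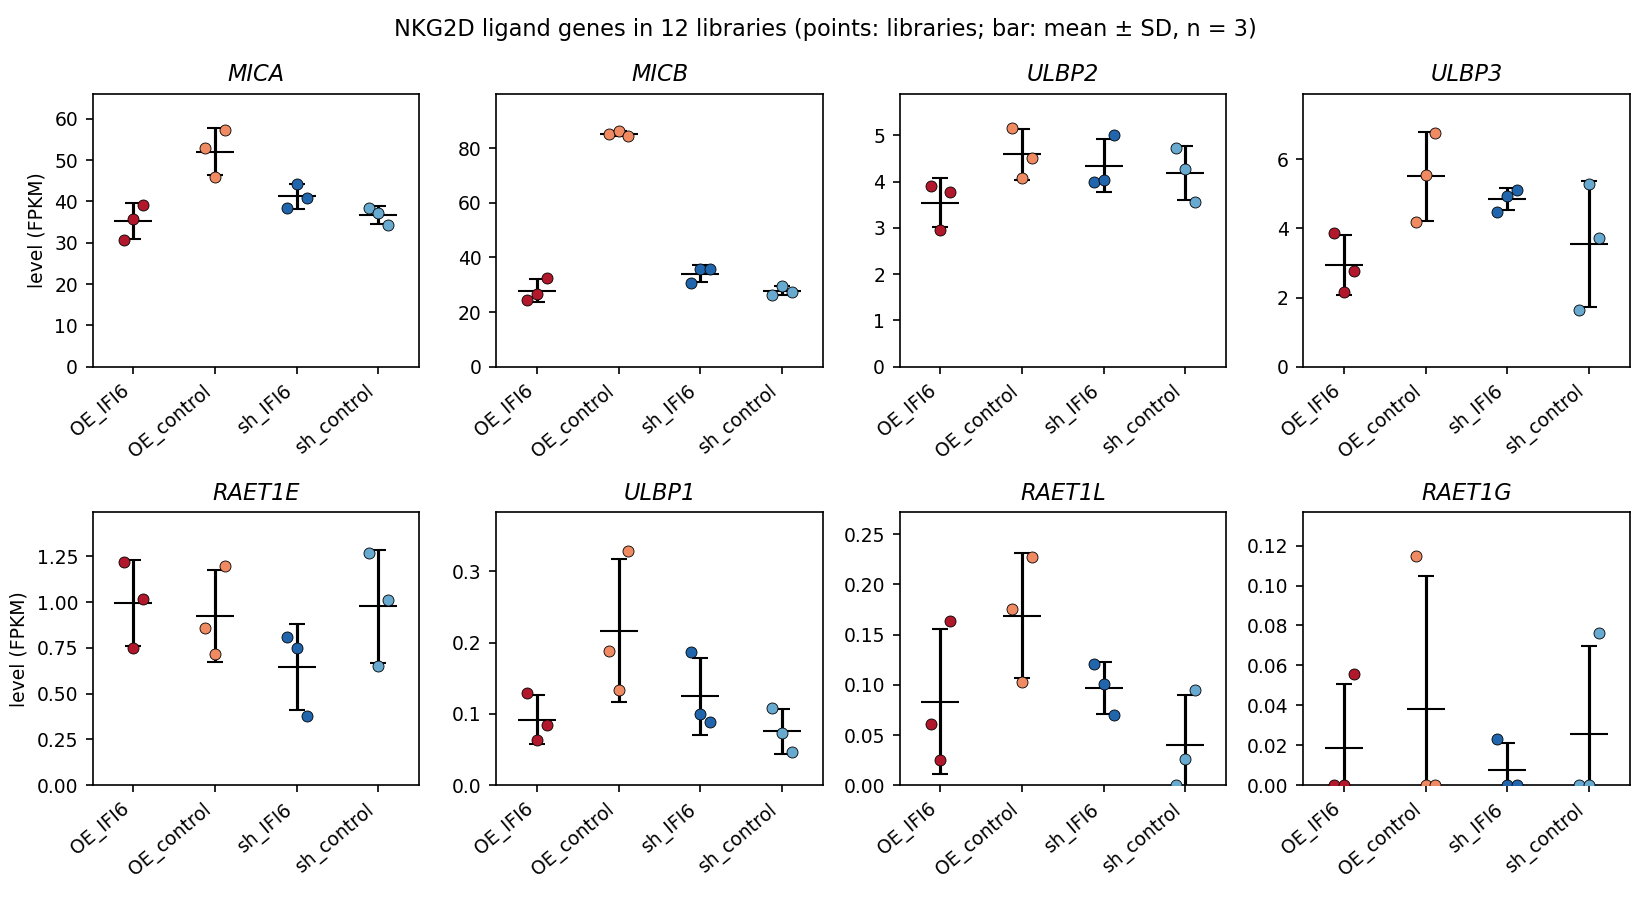
Level of each NKG2D ligand gene in FPKM (vertical axis, from 0, with its own scale per panel) in the 3 libraries of each group (points, replicate 1 to 3 from left to right), with mean and SD (bars, n = 3). MICB lies at 84.3 to 86.1 FPKM in OE_control and at 24.3 to 35.9 FPKM in the other 9 libraries.

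Since MICB drew attention in the pair of OE_IFI6 and OE_control, the values of the family there, and in every comparison that uses the OE_control or OE_IFI6 libraries, are given as a description and not as a test. MICB had 24.3, 26.6 and 32.4 FPKM in OE_IFI6, against 85.1, 86.1 and 84.3 FPKM in OE_control. It had 30.5, 35.9 and 35.6 FPKM in sh_IFI6, against 26.4, 29.6 and 27.5 FPKM in sh_control. The OE_control libraries stood above all others, and the OE_IFI6 and sh_control libraries overlapped. The means were 27.8 ± 4.14 FPKM in OE_IFI6, 85.1 ± 0.877 in OE_control, 34.0 ± 3.07 in sh_IFI6 and 27.8 ± 1.65 in sh_control (SD, n = 3 each). The ratio of means was 0.327 for OE_IFI6 over OE_control and 3.06 for OE_control over sh_control. For OE_IFI6 over sh_control the ratio was 1.0.

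MICA was also highest in OE_control, over a smaller range. It had 30.6, 35.8 and 39.2 FPKM in OE_IFI6, against 52.8, 45.9 and 57.2 FPKM in OE_control. In sh_IFI6 it had 38.5, 44.3 and 40.8 FPKM, against 38.5, 37.3 and 34.2 FPKM in sh_control. The OE_control libraries were again the highest of the 12, and OE_IFI6 and sh_control overlapped. The ratio of means was 0.677 for OE_IFI6 over OE_control, 1.42 for OE_control over sh_control and 0.962 for OE_IFI6 over sh_control. Because MICB differed more than MICA, the ratio of MICB to MICA was 0.744 to 0.825 in OE_IFI6, 1.47 to 1.87 in OE_control, 0.791 to 0.873 in sh_IFI6 and 0.685 to 0.803 in sh_control. MICA was thus the more abundant of the pair in 9 libraries and MICB in the 3 OE_control libraries. The summed level of the 8 genes was 64.1 to 79.5 FPKM in OE_IFI6, 143 to 155 in OE_control, 78.6 to 90.2 in sh_IFI6 and 70.1 to 77.2 in sh_control.

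Among the GPI-anchored ligands, ULBP3 and ULBP2 were the measured ones. ULBP3 had 3.88, 2.17 and 2.78 FPKM in OE_IFI6, against 4.18, 5.56 and 6.77 FPKM in OE_control. It had 4.49, 4.94 and 5.1 FPKM in sh_IFI6, against 1.65, 5.3 and 3.72 FPKM in sh_control. The sh_control libraries spread the most (3.56 ± 1.83 FPKM, SD, n = 3), and sh_control replicate 1 was the lowest of the 12. ULBP2 had 3.91, 2.95 and 3.78 FPKM in OE_IFI6, against 5.16, 4.08 and 4.52 FPKM in OE_control. In sh_IFI6 ULBP2 had 3.99, 4.03 and 5.0 FPKM, against 4.72, 4.27 and 3.56 FPKM in sh_control. Its group means were 3.54 ± 0.521 FPKM in OE_IFI6, 4.59 ± 0.542 in OE_control, 4.34 ± 0.572 in sh_IFI6 and 4.18 ± 0.583 in sh_control (SD, n = 3 each). The OE_IFI6 libraries lay below those of OE_control, while those of sh_IFI6 and sh_control overlapped, as did those of OE_control and sh_control and of OE_IFI6 and sh_control.

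The other members were low. RAET1E averaged 0.998 FPKM in OE_IFI6, 0.926 in OE_control, 0.648 in sh_IFI6 and 0.978 in sh_control, with overlapping libraries in each pair. ULBP1 ranged from 0.046 to 0.328 FPKM, RAET1L from 0 to 0.227 and RAET1G from 0 to 0.115 over the 12 libraries. RAET1G was listed at 0 in 2 of the 3 libraries of each group. These genes were under the filter and no difference between groups was tested.

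Between OE_IFI6 and OE_control, 5 of the 8 genes (MICA, MICB, ULBP1, ULBP2 and ULBP3) had all OE_IFI6 libraries below all OE_control libraries, where 9.78% of the 10925 genes tested had that order. MICB, by which the family was chosen in this pair, counts among the 5. ULBP1 was under the filter and not among the genes tested. On the log2(FPKM + 1) scale, which understates the change of low genes, the fold change was -1.59 (SE 0.12) for MICB, -0.55 (SE 0.12) for MICA, -0.73 (SE 0.28) for ULBP3 and -0.30 (SE 0.14) for ULBP2. The median of these 4 was -0.64, beside 0.05 over all genes tested. MICB, by which the family was chosen, is also in that median and ranked 23 of 10925 by size of fold change. IFI6 itself had a log2 fold change of 3.62 in this pair.

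The control groups also differed from each other in ligand levels. In OE_control against sh_control the log2 fold change was 1.58 for MICB, 0.49 for MICA, 0.58 for ULBP3 and 0.11 for ULBP2, with a median of 0.54 beside -0.09 over all genes. Of the 8 genes, 4 (MICA, MICB, ULBP1 and RAET1L) had all OE_control libraries above all sh_control libraries, beside 10.1% of genes tested. ULBP1 and RAET1L were under the filter and not among the genes tested, and the libraries of ULBP2 and ULBP3 overlapped. The ULBP3 value depended on sh_control replicate 1, without which it was 0.23. Setting OE_IFI6 against sh_control instead gave -0.01 for MICB, -0.06 for MICA, -0.14 for ULBP3 and -0.19 for ULBP2, each within its standard error of 0 or close to it (SE 0.12 for MICA and MICB, 0.28 for ULBP3 and 0.14 for ULBP2). In that pair the libraries of all 8 genes overlapped, beside 3% of genes with no overlap upward and 6.54% downward. These 3 comparisons share their control or OE_IFI6 libraries and are not independent. Whether the position of the OE_control libraries on the first principal component has a part in the values of MICA and MICB was not tested.

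**Figure D2:**
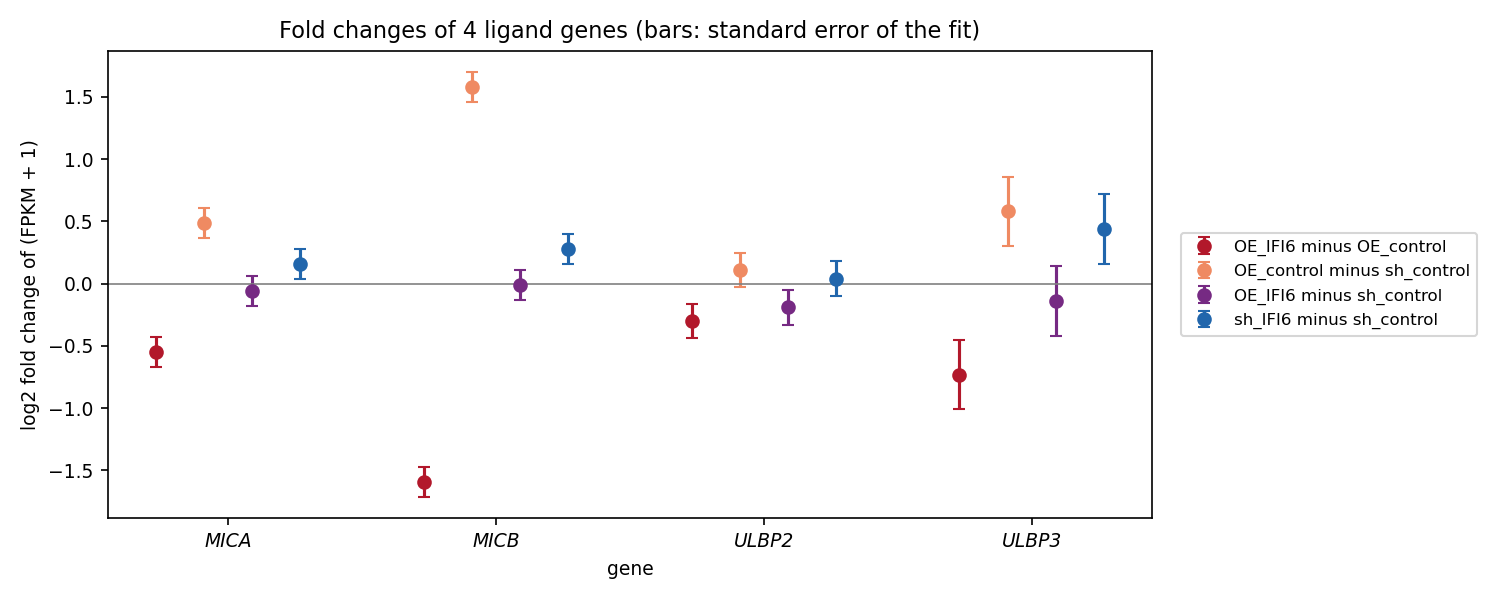
Log2 fold change of (FPKM + 1) with its standard error (vertical axis) for the 4 ligand genes that reached a mean of 1 FPKM, in 4 comparisons (colours). MICB lies at -1.59 for OE_IFI6 minus OE_control, at 1.58 for OE_control minus sh_control and at -0.01 for OE_IFI6 minus sh_control.

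The hairpin pair compares neither OE group, and here the members were tested, although the estimate of spread in the fit also draws on the OE libraries. The log2 fold change of sh_IFI6 over sh_control was 0.28 for MICB (95% interval 0.02 to 0.54) and 0.16 for MICA (-0.10 to 0.43). It was 0.44 for ULBP3 (-0.16 to 1.04) and 0.04 for ULBP2 (-0.26 to 0.35). None of the 4 passed the limma test over all genes, with adjusted p = 0.818 for MICB and ULBP3, 0.828 for MICA and 0.966 for ULBP2. A fit of the sh_IFI6 and sh_control libraries alone gave adjusted p = 0.458 for MICB, 0.518 for MICA, 0.568 for ULBP3 and 0.919 for ULBP2. Without sh_control replicate 1 the log2 fold change of ULBP3 was 0.10, and that of ULBP2 was -0.04 without sh_IFI6 replicate 3 or sh_control replicate 3. Before adjustment, p was 0.0349 for MICB, the only one of the 4 under 0.05, as were 563 of 10925 genes (5.15%). In this contrast 0 genes passed the adjusted threshold, a background of 0% in either direction. All sh_IFI6 libraries of MICA and MICB lay at or above the highest sh_control library in 3 significant digits and above it in the deposited values, 2 of 8 genes beside 9.46% of all genes tested. The interval of ULBP3 reaches from a lower to a more than 1 log2 unit higher level.

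Transcripts within the genes were divided between upstream and downstream starts. MICA was carried by MICA-210, which starts 3.81 kb upstream, and MICA-209, whose start is the RefSeq start of the window shown above. MICA-209 codes for 332 codons and MICA-210 for 235. MICB was carried by MICB-204, which starts 3.26 kb upstream of MICB-201, and by MICB-201, whose start is that of the RefSeq window. The promoters of the upstream starts are not in the windows shown.

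The split between the main MICB transcripts was unsteady within groups. MICB-201 took 59.5%, 44.3% and 0.892% of the gene in OE_IFI6, against 0.728%, 46.0% and 0.615% in OE_control. It took 53.1%, 72.1% and 48.1% in sh_IFI6, against 21.3%, 69.8% and 49.8% in sh_control. MICB-201 and MICB-204 share most of their exons, and how fragments were assigned between them is not stated, so the division rests on the authors' estimate. MICB-202, a minor coding transcript, had 0.229, 0.201 and 0.87 FPKM in OE_IFI6, against 6.35, 3.96 and 9.22 FPKM in OE_control. In sh_IFI6 it had 0.221, 0.338 and 0.641 FPKM, against 0.273, 0.409 and 0.276 FPKM in sh_control. Its OE_control libraries stood apart from the other 9, as for the gene.

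The deposited level of ULBP3 went with that listed for its shorter transcript. ULBP3-202 was listed at 0 in OE_IFI6 replicate 2 and sh_control replicate 1, the lowest libraries of their groups, and reached 4.58 FPKM elsewhere. ULBP3-201 varied less, from 0.931 to 1.9 FPKM over all 12 libraries. In the libraries without ULBP3-202, ULBP3-201 had 1.9 FPKM (OE_IFI6 replicate 2) and 1.44 FPKM (sh_control replicate 1). The spread of the gene in sh_control thus came with the presence or absence of ULBP3-202 in the deposited values. How fragments were assigned between these transcripts is not stated, so this division too rests on the authors' estimate. ULBP2 had a single transcript.

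**Figure D3:**
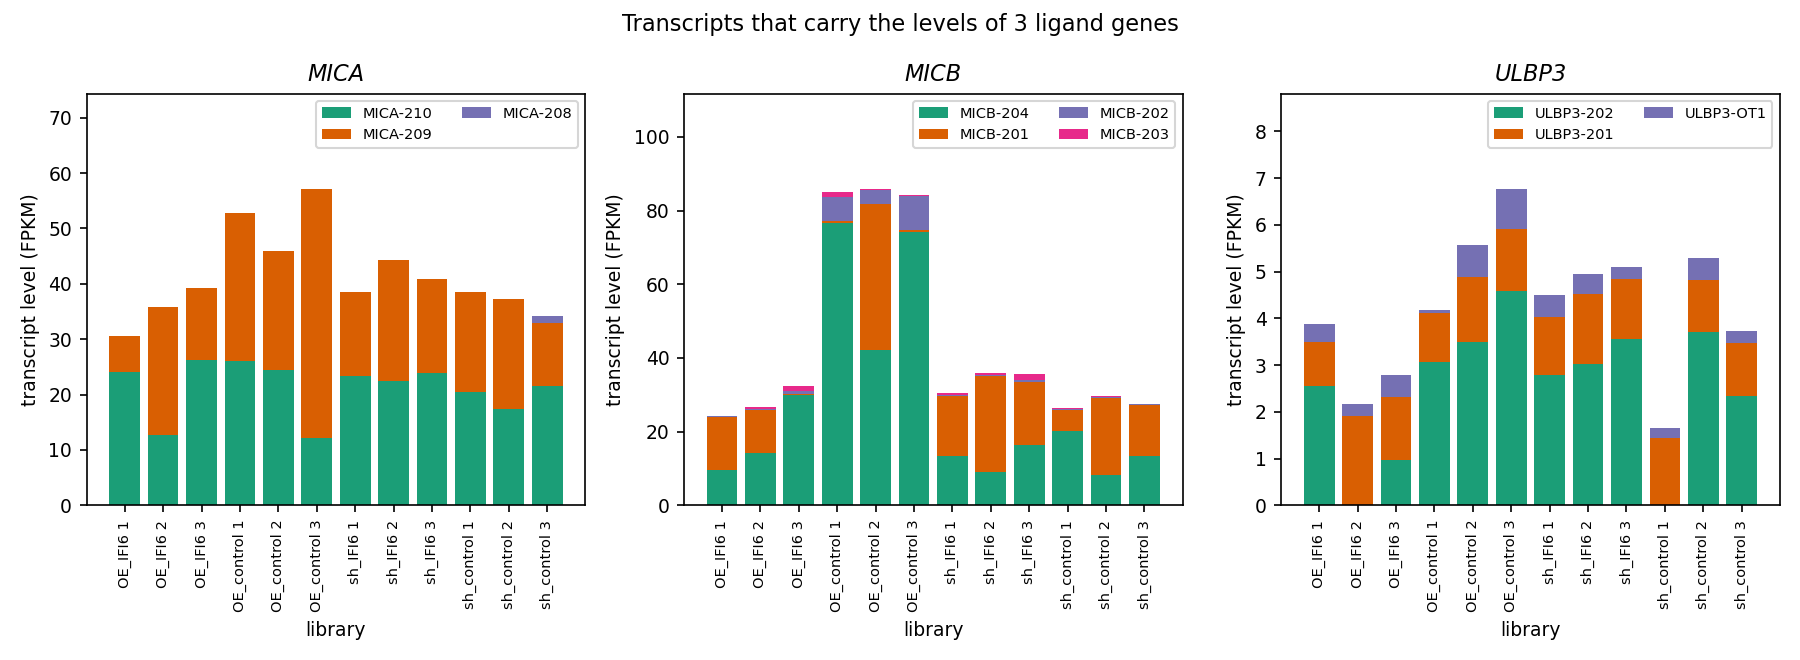
FPKM of the transcripts of MICA, MICB and ULBP3 (stacked bars, vertical axis from 0) in each of the 12 libraries (horizontal axis). The totals of MICB are highest in the 3 OE_control libraries, while the division between MICB-204 and MICB-201 differs among libraries of one group.

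Sequence likeness bears on how reads can be divided. The longest coding sequences of MICA and MICB were 92.1% identical over 989 aligned bases, ULBP2 and RAET1L 96.7% and ULBP2 and RAET1G 94.6%. Between the MIC pair and the ULBP and RAET1 genes, identity was 62.8% to 68.0%. Of the 50-base words of MICB-201, 1.38% also occurred in MICA transcripts, and of those of MICA-209 2.47% in MICB. Of the 50-base words of ULBP2, 29.4% occurred in RAET1L, so reads of that pair could be split, and the low values of RAET1L and RAET1G are uncertain.

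Noncoding genes whose deposited bounds overlap those of the MIC genes may limit the MIC values as well. Strand use is not given, so reads from any shared exons could not be told apart by strand. Whether exons are shared was not examined. AL645933.3, whose deposited bounds span both MICA and MICB, had 1.29, 1.13 and 1.65 FPKM in OE_IFI6, against 3.48, 3.35 and 2.51 FPKM in OE_control. It had 1.95, 2.33 and 2.16 FPKM in sh_IFI6, against 1.52, 1.6 and 1.85 FPKM in sh_control. HCP5, a noncoding gene that overlaps MICA, had 9.4, 8.77 and 9.55 FPKM in OE_IFI6, against 15.4, 16.2 and 14.4 FPKM in OE_control. HCP5 had 9.09, 1.6 and 10.8 FPKM in sh_IFI6, against 1.28, 8.53 and 9.2 FPKM in sh_control. Both genes were highest in the 3 OE_control libraries, as MICA and MICB were. Their part in the MICA and MICB values was not tested.

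Calls among protein-coding neighbours are given beside the share of all genes tested. Of 24 genes within 200 kb of MICA or MICB, 14 were tested. In OE_IFI6 against OE_control 0 passed the limma threshold, beside 4.1% of all genes that rose and 3.56% that fell. The median log2 fold change of the 14 was -0.08. In OE_control against sh_control 1 of the 14 rose, beside 2.75% of all genes. It was DDX39B, an RNA helicase gene, at 0.54 (limma adjusted p = 0.0354). That call ended without any 1 of 5 of the 6 libraries, all but OE_control replicate 2 (log2 fold change 0.46 to 0.57, adjusted p 0.0778 to 0.113). It also ended under quantile normalization (limma adjusted p = 0.0688). Near the ULBP and RAET1 cluster, 4 of 5 genes were tested. Of these, 1 rose in OE_IFI6 against OE_control, beside 4.1% of all genes. It was NUP43, a nuclear pore gene, at 0.45 (limma adjusted p = 0.0308), the direction opposite to that of ULBP3. That NUP43 call ended without any 1 of the libraries but OE_IFI6 replicate 3 (0.38 to 0.48, adjusted p 0.0517 to 0.0961). In OE_control against sh_control NUP43 fell, at -0.44 (limma adjusted p = 0.0349), beside 4.78% of all genes that fell. This second call ended without each of the 6 libraries in turn (-0.47 to -0.38, adjusted p 0.0543 to 0.119). Median-of-ratios scaling, quantile normalization, the control groups alone and the replicate block ended it too (adjusted p 0.054 to 0.0913). In OE_IFI6 against sh_control the log2 fold change of NUP43 was 0.01.

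Regulators reported to act on NKG2D ligand genes were measured in full, all 19 passing the filter. In OE_IFI6 against OE_control 1 rose and 2 fell, beside 4.1% of all genes that rose and 3.56% that fell, and the median was -0.17. RELA, the NF-kB subunit p65, fell to 4.78 ± 0.847 FPKM in OE_IFI6, against 7.99 ± 1.04 FPKM in OE_control (log2 fold change -0.64, adjusted p = 0.013). ATF4, the transcription factor of the integrated stress response, fell to 248 ± 27.8 FPKM in OE_IFI6, against 325 ± 10.9 FPKM in OE_control (-0.39, adjusted p = 0.0325). TFAP2A, the transcription factor AP-2 alpha, rose to 16.3 ± 3.17 FPKM in OE_IFI6, against 10.8 ± 0.977 FPKM in OE_control (0.54, adjusted p = 0.0437; SD, 3 libraries per group). HSF1, the factor that binds heat shock elements, gave -0.19 and did not pass (adjusted p = 0.409). The call for ATF4 ended without OE_IFI6 replicate 1 or 2 or OE_control replicate 1 or 3 (-0.39 to -0.31, adjusted p 0.0734 to 0.103). That for TFAP2A ended without any library but OE_IFI6 replicate 2 (0.40 to 0.60, adjusted p 0.0507 to 0.13), while that for RELA held without each single library. In a fit of the OE_IFI6 and OE_control libraries alone, all 8 calls that this comparison gave among list and neighbour genes ended (ATF4, FAS, HLA-E, NUP43, PIGA, PROCR, RELA and TFAP2A; adjusted p 0.0524 to 0.201). Quantile normalization ended those for ATF4, NUP43 and TFAP2A. The call for TFAP2A also ended under median-of-ratios scaling and with no filter.

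Other proteins of the MHC class I fold were the nearest relatives of the ligands. Of 17 genes listed, 9 were tested, among them B2M, which is the light chain of MHC class I and not a heavy chain. In OE_IFI6 against OE_control 0 rose and 2 fell, beside 4.1% and 3.56% of all genes. The median was -0.35 and 8 of 9 fold changes were below 0, as were 43.4% of all genes tested. HLA-E, which presents leader peptides to the inhibitory NK receptor NKG2A, fell to 46.1 ± 7.22 FPKM in OE_IFI6, against 63.4 ± 2.52 FPKM in OE_control (-0.46, adjusted p = 0.0284). PROCR, the endothelial protein C receptor, fell to 30.5 ± 1.66 FPKM in OE_IFI6, against 42.4 ± 5.98 FPKM in OE_control (-0.45, adjusted p = 0.0325; SD, 3 libraries per group). Both calls ended without OE_IFI6 replicate 1 or 2 or OE_control replicate 1 or 3, with values of -0.44 to -0.37 for HLA-E (adjusted p 0.0697 to 0.0902) and -0.46 to -0.36 for PROCR (adjusted p 0.0753 to 0.0945). HLA class I genes are close copies of each other, so their division of reads is uncertain. The antigen-presenting genes CD1A, CD1B, CD1C, CD1D and CD1E were listed at 0 in all libraries.

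Of 15 genes listed as other NK ligands, a list that also holds adhesion proteins and death receptors, 8 were tested and 1 fell, beside 3.56% of all genes. FAS, a death receptor, fell to 3.78 ± 0.0302 FPKM in OE_IFI6, against 7.39 ± 1.22 FPKM in OE_control (SD, 3 libraries per group; -0.80, adjusted p = 0.0208). The 8 fold changes were all below 0, beside 43.4% of all genes tested, with a median of -0.27. PVR and NECTIN2, ligands of the activating receptor DNAM-1, gave -0.44 and -0.40 and did not pass (adjusted p = 0.308 and 0.176). The FAS call ended without OE_IFI6 replicate 1 or 2 or OE_control replicate 1 or 2 (-0.80 to -0.74, adjusted p 0.057 to 0.0651).

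Among genes that release or anchor the ligands, 1 passed the test. Of 10 genes of the shedding list, 7 were tested, and 0 passed the limma threshold in OE_IFI6 against OE_control, where 1 had an unadjusted p under 0.05 in each direction. The proteases ADAM10 and ADAM17, which cut MICA and ULBP2 from the surface, gave -0.36 and -0.35 (adjusted p = 0.499 and 0.21). Of the 6 GPI anchor genes, all tested, 1 fell, beside 3.56% of all genes: PIGA, which acts in the first step of GPI synthesis, had 23.5 ± 4.14 FPKM in OE_IFI6, against 38.5 ± 9.71 FPKM in OE_control (SD, 3 libraries per group; -0.67, adjusted p = 0.0487). That call ended without any 1 library but OE_control replicate 3 (-0.79 to -0.53, adjusted p 0.0506 to 0.147). It also ended with no filter, with no trend and in the deposited table with noncoding genes included.

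In OE_control against sh_control, where 2.75% of all genes rose, calls came from the lists of regulators, other NK ligands and the MHC class I fold, and 0 from the GPI and shedding lists, in which 1 gene each had an unadjusted p under 0.05. RELA, ATF4, FAS, PROCR and B2M rose by 0.43 to 0.74 on the log2 scale (limma adjusted p 0.0222 to 0.0337), and TFAP2A fell by 0.87 (adjusted p = 0.00512). B2M, the light chain of MHC class I, had 1230 ± 165 FPKM in OE_control, against 880 ± 90.1 FPKM in sh_control. The call for TFAP2A, beside 4.78% of genes that fell, held without each single library. Those for ATF4 and PROCR ended without any 1 library but OE_control replicate 2, that for RELA without any but OE_control replicate 1, that for FAS without any but OE_control replicate 3, and that for B2M without any but OE_control replicate 3 and sh_control replicate 1. Without those libraries the log2 fold changes were 0.38 to 0.79, with adjusted p of 0.0503 to 0.126. With only the control groups in the fit, the calls for ATF4, PROCR, RELA and B2M also ended. Quantile normalization ended those for ATF4 and B2M, no filter those for FAS and B2M, and the replicate block that for B2M. In these settings the limma adjusted p was 0.0515 to 0.14. Against sh_control, OE_IFI6 gave 0 calls in these lists, beside 0.0183% of all genes, and 1 of the list genes had an unadjusted p under 0.05. In sh_IFI6 against sh_control the lists also gave 0 calls by limma, where 2 genes had an unadjusted p under 0.05 with a higher and 2 with a lower level in sh_IFI6. Lists and members were chosen with earlier results of these libraries known, and the comparisons share groups, so the directions are not independent of those of MICA and MICB.

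**Figure D4:**
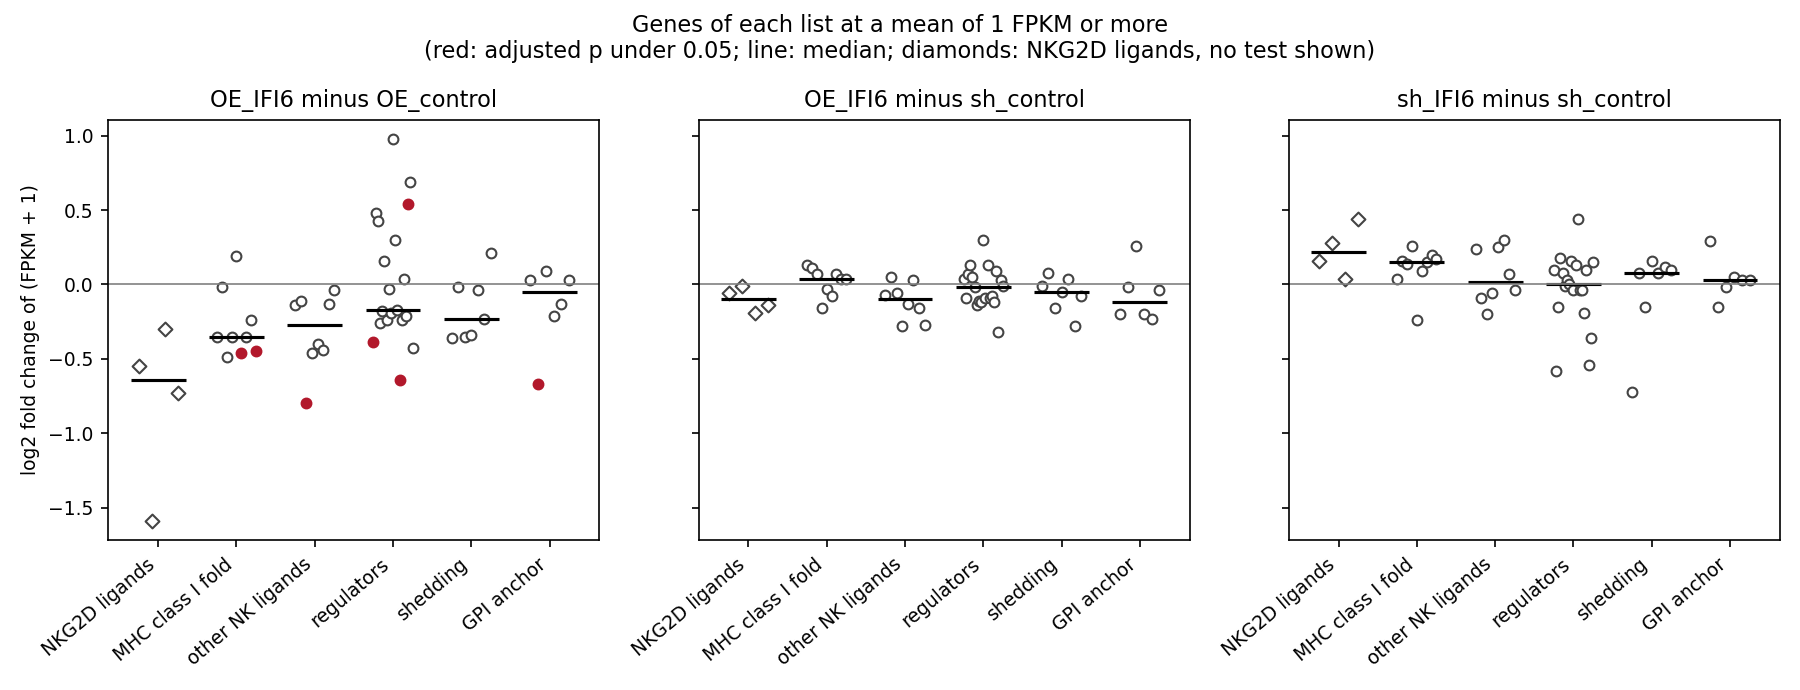
Log2 fold change of (FPKM + 1) (vertical axis) of each gene that reached a mean of 1 FPKM in 6 lists (horizontal axis), in 3 comparisons (panels), with the list's median as a line and genes past the limma threshold in red (diamonds are the NKG2D ligands, for which no test is shown). In the left panel the medians lie at -0.64 for the ligands, -0.35 for the MHC class I fold and -0.27 for other NK ligands. MICB, by which the family was chosen, is in the ligand median. No gene is red in the other panels, OE_IFI6 minus sh_control and sh_IFI6 minus sh_control. OE_control minus sh_control, in which genes of these lists also passed, is not shown.

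The receptor side was near the limit of detection. Of 12 genes for NKG2D, its adaptors and other markers of NK and T cells, 0 averaged 1 FPKM. CD3E, GZMB, NCR1, NKG7 and TYROBP were listed at 0 in all libraries. KLRK1, the gene of NKG2D itself, had 0.896, 2.03 and 0.932 FPKM in OE_IFI6, against 0.489, 0.44 and 0.694 FPKM in OE_control. Its level was 0.271 to 1.01 FPKM in sh_IFI6, against 0.286 to 1.24 FPKM in sh_control. HCST, the gene of the NKG2D adaptor DAP10, had 0.641, 0.58 and 0.617 FPKM in OE_IFI6, against 0.351, 0.32 and 0.352 FPKM in OE_control. In sh_IFI6 HCST had 0.345, 0.152 and 0.301 FPKM, against 0.599, 0.595 and 0.712 FPKM in sh_control. These genes were under the filter and were not tested.

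The genes whose levels were most like those of each ligand over the 12 libraries were found by Pearson's r of log2(FPKM + 1), as a description, since the libraries share groups and the OE_control libraries lie apart. Among the genes most like MICB were the MAP kinase phosphatases DUSP1 (0.988) and DUSP5 (0.985). DUSP5 averaged 27.7 ± 3.22, 105 ± 14.7, 32.2 ± 1.99 and 30.0 ± 1.5 FPKM in OE_IFI6, OE_control, sh_IFI6 and sh_control (SD, n = 3 each). MICA was most like CDH24 (0.962), SDC1 (0.955) and BAK1 (0.951), and MICA and MICB gave 0.9 with each other. ULBP2 was most like NAGLU (0.86), KLHL21 (0.831) and SIRT4 (0.82), and ULBP3 like TULP3 (0.877), RAB3A (0.876) and STIP1 (0.87). Between the MIC genes and the 2 ULBP genes r was 0.47 to 0.57, and between ULBP2 and ULBP3 0.34.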

How the data were processed

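FPKM of genes and transcripts were computed and deposited by the authors. The submitters' processing notes name HISAT2, StringTie, Cuffdiff and edgeR without role or version. Build, annotation and strand use: not given in the sources used here. By identifier, 19702 of 19771 genes matched GENCODE release 29 (GRCh38), of which 19681 overlapped its bounds. Groups and replicate numbers came from sample titles.

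The 10925 genes that averaged 1 FPKM or more were fitted as log2(FPKM + 1) with limma 3.58.1 (R 4.3.3), in 1 group-means model of the 12 libraries (8 residual degrees of freedom, trended prior). Tests were two-sided, and a gene was called at p under 0.05 after Benjamini-Hochberg adjustment over all genes tested. The script was tested on simulated data. The absolute depth per library is unknown. Low values lay on steps that give relative depth, but only 49.4% to 56.7% were whole multiples of a step to within 0.05, and reads could not be recovered for a test on counts. Whether a step is a read or a fragment is not known.

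Members and lists were chosen with earlier results of these data known. Beside the 8 members and IFI6, genes were named by rule: up to 4 genes of smallest p per list past the threshold, up to 4 passing neighbours within 200 kb, and the 3 most like genes per measured member. A few genes that this rule names, a call between the control groups among them, are not reported here. HSF1, ADAM10, ADAM17, PVR, NECTIN2, KLRK1 and HCST were added for their known roles after their values were seen, and MICB-202 likewise. Coding identity was computed by pairwise alignment of GENCODE sequences (Biopython 1.88), in place of the planned protein comparison, and promoters are from RefSeq. Alternatives were a pseudocount of 0.1, no filter, a mean of at least 5 FPKM, median-of-ratios scaling, quantile normalization, no trend, a robust prior, only the 2 groups compared, a replicate block, the deposited table with noncoding genes included, and fits without each library in turn.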

Additional observations from a re-analysis of the deposited data

Results flagged for a closer look

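MICA and MICB lay on opposite sides of their controls in the overexpression and the hairpin pair. Every OE_IFI6 library was below every OE_control library (log2 fold change -1.59 for MICB and -0.55 for MICA), while every sh_IFI6 library was above every sh_control library (0.28 for MICB and 0.16 for MICA). Neither gene passed the test in the hairpin pair. Against sh_control, OE_IFI6 gave -0.01 for MICB and -0.06 for MICA. The difference between the 2 effects was not tested. MICB is the gene by which the family was chosen in the overexpression pair, and its value there is a description only. Of all genes tested, 9.78% had the lower order in the overexpression pair and 9.46% the higher order in the hairpin pair. How many genes had both orders was not counted.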

How the results depend on the processing

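In sh_IFI6 against sh_control none of the 4 measured ligand genes passed in any of 62 alternative values, and the log2 fold change was 0.24 to 0.35 for MICB, 0.11 to 0.21 for MICA, 0.10 to 0.72 for ULBP3 and -0.04 to 0.12 for ULBP2. In OE_control against sh_control it was 0.23 to 0.86 for ULBP3. In OE_IFI6 against OE_control it was -1.70 to -1.50 for MICB and -0.64 to -0.46 for MICA. The number of genes past the threshold depended more on the samples in the fit. In OE_IFI6 against OE_control it was 837, 167 with only the OE groups and 503 to 859 without 1 library (503 without OE_control replicate 3, 526 without OE_IFI6 replicate 2). The split of 448 higher and 389 lower became 427 and 517 under median-of-ratios scaling and 371 and 475 under quantile normalization. In OE_control against sh_control it was 822, 429 with only the control groups and 319 to 769 without 1 library (512 and 543 without OE_control replicate 1 and 3, and 440, 319 and 405 without sh_control replicate 1, 2 and 3). There the split of 300 higher and 522 lower became 480 and 358 under median-of-ratios scaling and 378 and 330 under quantile normalization. In OE_IFI6 against sh_control 2 genes passed (IFI6 and RBMXL1), 1 with a mean of at least 5 FPKM (IFI6), 5 with only those groups (also ARPIN-AP3S2, AP3S2 and MT-ND4L), 4 in the table of all annotated genes (also AL445490.1 and an assembled locus) and 2 to 5 without 1 library (5 without OE_IFI6 replicate 2). In sh_IFI6 against sh_control 0 passed, 1 with only the hairpin groups (YIPF6) and 0 to 1 without 1 library (PHLDA3 or KLF10). The cause was not tested. Libraries of the same replicate number did not vary together in every pair (correlations of -0.04 to 0.25), so the numbers were not taken as pairs. In OE_IFI6 against OE_control these correlations were 0.09, 0.25 and 0.12, beside -0.15 to 0.03 between unlike numbers. In the hairpin pair they were -0.04, -0.01 and -0.03. The replicate block gave 802, 776, 2 and 0 genes in the order above. In OE_IFI6 against OE_control the block ended the calls for PIGA, PROCR and TFAP2A. Counting error limits the genes that averaged under 1 FPKM (RAET1E, ULBP1, RAET1L and RAET1G).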

Other observations

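Noncoding genes around RAET1E varied in single libraries. In sh_IFI6 replicate 2, RAET1E-AS1 had 0.377 FPKM and the overlapping AL355312.3 had 3.55 FPKM, while in the other 11 libraries RAET1E-AS1 had 2.33 to 4.27 FPKM and AL355312.3 at most 0.332 FPKM. AL355312.6, which also overlaps RAET1E, averaged 3.12 ± 0.281 FPKM in OE_IFI6, 5.12 ± 0.625 in OE_control, 3.04 ± 0.635 in sh_IFI6 and 2.93 ± 0.571 in sh_control (SD, n = 3 each), while RAET1E itself overlapped between all groups. These genes were chosen after their values were seen and were not tested.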
